A study of Mus musculus with 23 samples.

Results

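The genes described here encode the subunits of voltage-gated sodium channels, voltage-gated calcium channels and potassium channels in the mouse nucleus accumbens. They were taken by symbol (Kcn, Cacn, and Scn followed by a digit and a or b), and a gene counted as detected if 5 or more arrays gave one of its probes a detection p below 0.01. The array carries 252 probes for 121 such genes, and 112 probes of 70 genes were detected, out of 10138 genes detected and represented in all. The 70 comprise 4 pore-forming and 3 beta subunits of sodium channels, 4 pore-forming, 2 alpha2delta, 3 beta and 5 gamma subunits of calcium channels, and 48 potassium channel subunits. The remaining gene is Kcnq1ot1, a non-coding transcript that the symbol rule takes in. The array gives 1 tested probe for 39 of the 70.

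Voltage-gated sodium channels carry the upstroke of the action potential, calcium channels couple depolarisation to transmitter release and to signalling inside the cell, and potassium channels set the resting potential and end each spike. Pore-forming subunits make the conducting path, and accessory subunits set its gating, its trafficking and its place in the membrane. The principal cells of the nucleus accumbens, the GABAergic spiny projection neurons, are known for a strong inwardly rectifying potassium current that holds them at a negative resting potential, and for A-type potassium currents that delay their first spike.

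RNA was taken from tissue punches of 23 C57BL6 mice 1 h after an intraperitoneal injection. The groups were heterozygotes for the Foxp2 stop allele (S321X/+) given cocaine at 15 mg/kg (6 mice), heterozygotes given saline (5 mice), wild-type littermates given cocaine (6 mice) and wild-type littermates given saline (6 mice). Cocaine blocks the reuptake of dopamine, and Foxp2 is a transcription factor of the forkhead family that striatal neurons express. Each mouse gave 1 Illumina MouseWG-6 v2 bead array, and all levels below are log2 intensities after background correction and quantile normalization.

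Between 16102 and 17933 probes and between 60 and 68 of the 70 channel genes were detected per array. Correlations between 2 arrays ranged over 0.967 to 0.991, and the number of arrays limits the precision. The 3 detected probes of Foxp2 averaged 8.45, 8.18 and 8.61 in heterozygotes given saline, against 9.05, 8.73 and 9.09 in wild type given saline. After cocaine the heterozygous and wild-type arrays overlapped in all 3. Heterozygous cocaine arrays 9, 16 and 19 stood apart on the first principal component, which held 15.7% of the variance: they scored 27.3 to 31.7, and the next array, of a wild-type mouse given cocaine, 18.8. Markers of spiny projection neurons were present (14 of 17 listed genes detected), and so were markers of excitatory cortical neurons (8 of 10), which are few inside the striatum.

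Those 2 marker lists moved with the injection, and their values bear on what follows. Of the 8 excitatory markers 5 rose with cocaine and 0 fell (median 0.60 on the log2 scale). Of the 14 spiny neuron markers 0 rose and 9 fell (median -0.38). Over all genes 3.16% rose and 1.29% fell, with a median of -0.01. A score is the mean log2 deviation of a list's detected genes on an array. Heterozygous cocaine arrays 9, 16 and 19 had excitatory scores of 0.97, 0.94 and 0.84 and striatal scores of -0.57, -0.70 and -0.58. Heterozygous cocaine arrays 3, 11 and 23 had excitatory scores of 0.13, -0.16 and 0.11 and striatal scores of -0.12, -0.03 and 0.02. The summed intensity of the excitatory markers ran over 7875 to 16931 units in heterozygotes given cocaine, 4534 to 8671 in heterozygotes given saline, 7771 to 13023 in wild type given cocaine and 6064 to 9464 in wild type given saline. The summed spiny neuron markers ran over 80714 to 129779, 126372 to 145908, 110287 to 138597 and 136241 to 150425 units in the same order of groups. Emx1 of the first list, and Adora2a and Adcy5 of the second, were among the markers not detected. In tissue punches fewer cells of a type and less RNA per cell cannot be told apart.

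Among the channel genes 10 of 70 differed between cocaine and saline arrays when both genotypes were averaged: 7 rose and 3 fell. Cacna2d1, Kcnj3, Kcnc4, Cacna1g, Kcnu1, Kcnf1 and Kcnma1 were higher after cocaine, by 0.30 to 0.83 on the log2 scale, and Kcnip2, Scn4b and Kcnh2 were lower, by amounts that fitted as -0.46, -0.34 and -0.27. The test was limma's moderated test with Benjamini-Hochberg adjustment over 18509 probes, at an adjusted p under 0.05. Over all genes the same test called 4.45%, with 3.16% higher and 1.29% lower. The median difference was -0.04 over the 70 and -0.01 over all genes, and 28 of the 70 had an unadjusted p under 0.05, against 19.2% of all genes.

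The counts of calls changed with the arrays and with the marker scores in the fit. The scores differ between injections (excitatory means of 0.47 after cocaine and -0.46 after saline in heterozygotes). A score as a covariate therefore takes up part of the cocaine contrast, and a lost call alone does not show that a gene follows the score. Without arrays 9, 16 and 19 only Cacna2d1 of the 10 still passed, and 49 of all genes did. With the excitatory or the striatal marker score as a covariate 0 of the 70 passed, and 14 and 12 of all genes did. Arrays 9, 16 and 19 also had the highest excitatory and the lowest striatal scores. Leaving them out and adding a score are therefore not separate checks. The part of a changed tissue make-up in the differences of these genes was not tested beyond these values.

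**Figure D1:**
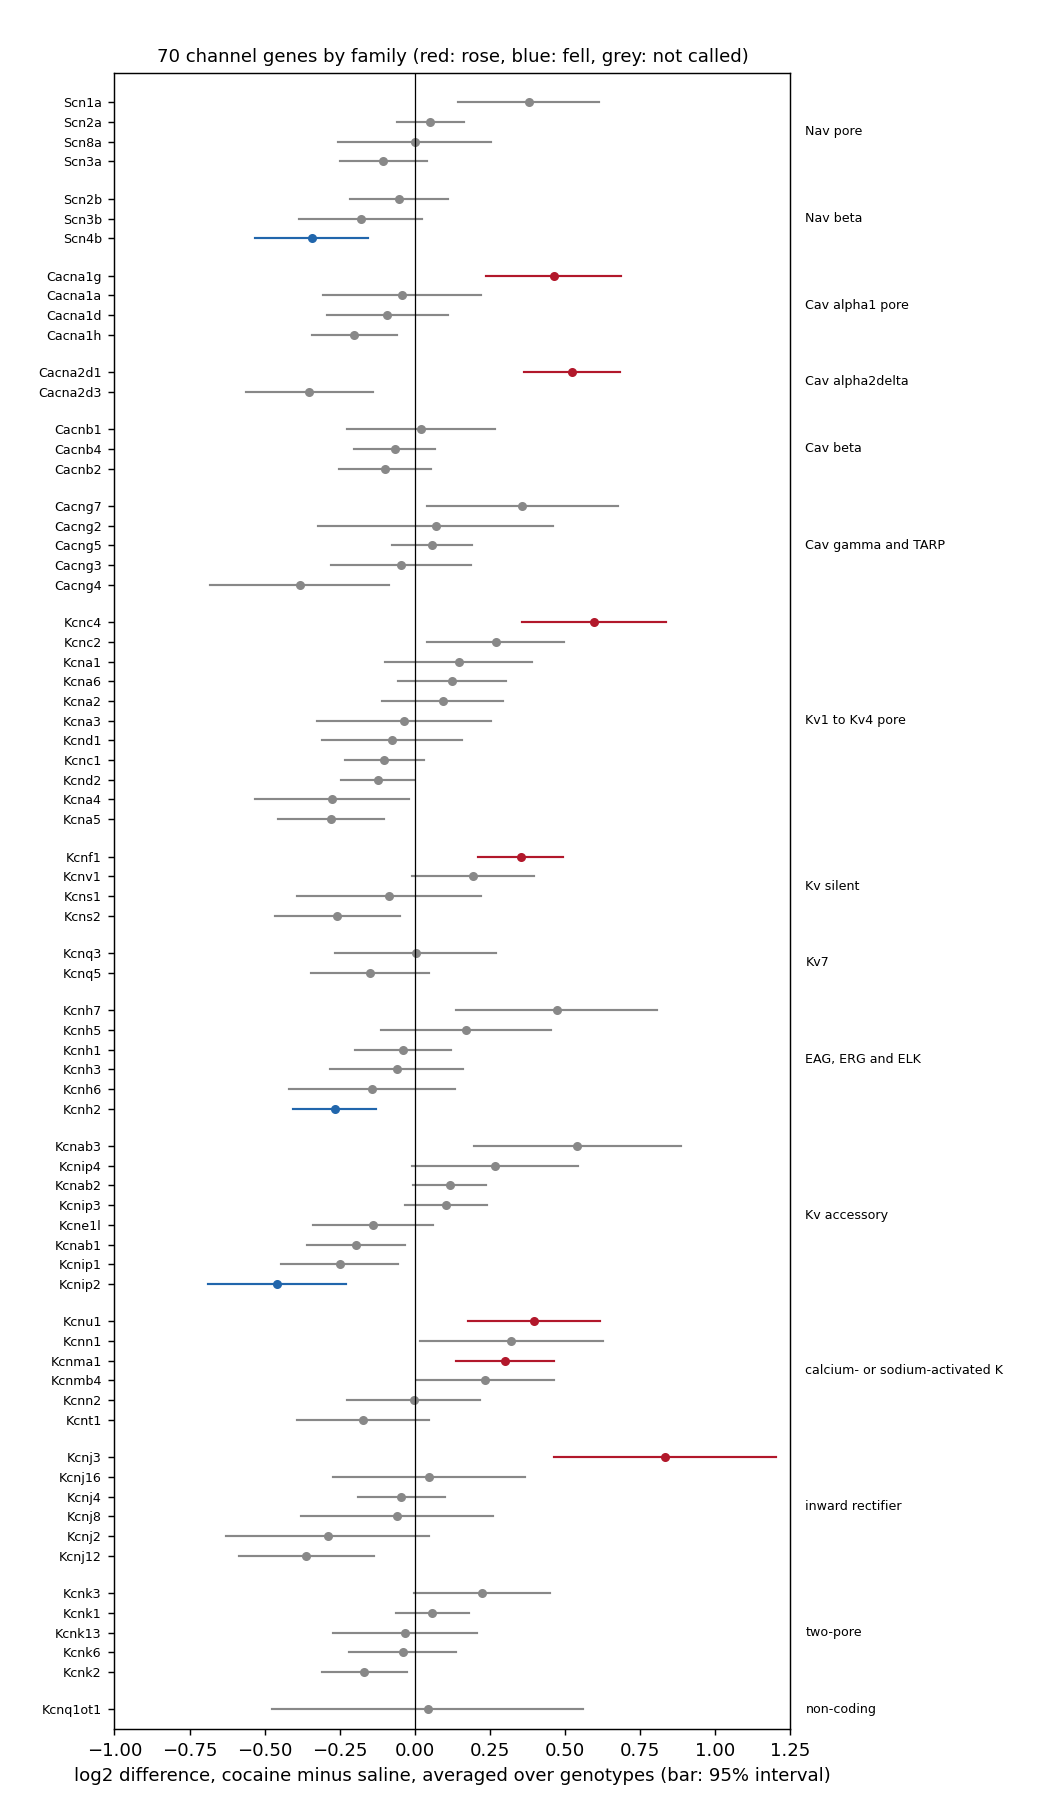
Log2 difference of each of the 70 genes, cocaine minus saline, averaged over genotypes and sorted by family. Points are fitted differences and bars 95% intervals. The 7 genes that rose and the 3 that fell lie in 9 of the 15 families. The points of Kcnh7 and Kcns1 are fitted values that include groups in which these genes were not above background.

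Cacna2d1 encodes an alpha2delta subunit, which brings calcium channels to the presynaptic membrane and is the binding site of the gabapentinoid drugs. It had the smallest p of the 70. Its level ran over 10.85 to 11.39 (median 11.13) in heterozygotes given cocaine, against 10.47, 10.48, 10.24, 10.62 and 10.54 in heterozygotes given saline. In wild type it ran over 10.69 to 11.24 (median 10.85) after cocaine, against 10.28 to 10.74 (median 10.50) after saline. All 6 heterozygous and 5 of 6 wild-type cocaine arrays lay above every saline array of their genotype. The difference was 0.52 ± 0.08 (SE), a fold of 1.44 (adjusted p = 0.000504). It was 0.51 without arrays 9, 16 and 19, 0.45 with the excitatory and 0.52 with the striatal score, and passed with neither covariate. Within groups its slope was 0.12 ± 0.10 per unit of the excitatory and -0.01 ± 0.23 per unit of the striatal score, and neither slope passed. The other detected alpha2delta gene, Cacna2d3, differed by -0.35 ± 0.10 and did not pass (adjusted p = 0.0524).

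The promoter of Cacna2d1 is printed as that of the gene with the smallest p, and that of Kcnj3 as that of the gene with the largest rise. Both are 300 bases of the RefSeq annotation of GRCm38.p6, running from 250 bases before to 50 bases after the annotated start on the gene's own strand. They were searched on both strands for 4 motifs: the EGR site GCGNGGGCG, the AP-1 site TGANTCA, the CRE TGACGTCA and the forkhead site TGTTTAC. Capitals mark a match. The window of Cacna2d1 (chr5:15934441-15934740, plus strand) holds 2 matches to the EGR motif, both on the minus strand and not overlapping, and is 80.0% G and C, against a median of 52.7% over all windows. That of Kcnj3 (chr2:55435720-55436019, plus strand) holds 0 matches and is 57.7% G and C.
Cacna2d1: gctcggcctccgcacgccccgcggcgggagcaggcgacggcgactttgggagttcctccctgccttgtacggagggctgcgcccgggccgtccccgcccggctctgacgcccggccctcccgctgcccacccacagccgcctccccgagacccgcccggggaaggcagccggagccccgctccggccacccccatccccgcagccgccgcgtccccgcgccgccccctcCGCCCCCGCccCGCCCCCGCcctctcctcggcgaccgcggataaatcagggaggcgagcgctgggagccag
Kcnj3: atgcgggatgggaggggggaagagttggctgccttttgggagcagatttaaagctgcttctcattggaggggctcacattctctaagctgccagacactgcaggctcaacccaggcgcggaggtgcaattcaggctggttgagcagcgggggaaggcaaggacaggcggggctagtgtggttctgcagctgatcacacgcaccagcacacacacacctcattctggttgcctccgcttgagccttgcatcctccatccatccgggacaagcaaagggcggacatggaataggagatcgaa

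A match is a run of letters and not a site shown to be bound. Of 32851 windows given by RefSeq, 5.55% hold the EGR motif, 7.81% the AP-1 motif, 1.79% the CRE and 3.65% the forkhead motif. A window was matched for 52 of the 70 channel genes, with 80 windows in all. Of the 80 windows 5 held the EGR motif (Cacna1d, Cacna2d1, Kcna4, Kcnk2 and Scn8a). The AP-1 motif was in 4 of the 80 (Cacng5, Kcnip3, Kcnip4 and Kcnk2), and the CRE and the forkhead motif were in 0.

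Kcnj3 encodes a subunit of the G protein-gated inward rectifier, the channel through which many inhibitory receptors hyperpolarise neurons. Heterozygotes given cocaine had levels of 8.46 to 9.62 (median 9.31), against 7.81, 8.50, 7.19, 8.10 and 8.48 in those given saline. Wild type given cocaine had 8.13 to 9.44 (median 8.95), against 7.998 to 8.92 (median 8.47) in wild type given saline. The groups overlapped: 7 of 12 cocaine arrays lay above all 11 saline arrays. Its difference, 0.83 ± 0.18 or 1.78-fold, was the largest of the 70 (adjusted p = 0.0102). Its other probe rose by 0.60 ± 0.14 (adjusted p = 0.016). Without arrays 9, 16 and 19 the difference was 0.63, and with the excitatory and the striatal score 0.23 and 0.24, none of which passed. With blocks of 6 array numbers it was 0.70 and did not pass either.

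The other 5 inward rectifier genes did not pass. Kcnj12 and Kcnj2, which encode subunits of the strong rectifiers that hold the resting potential, differed by -0.36 ± 0.11 (adjusted p = 0.0624) and -0.29 ± 0.16 (adjusted p = 0.371). Kcnj4, the strong rectifier subunit that is rich in the striatum, differed by -0.04 ± 0.07, Kcnj8, known from mural cells, by -0.06 ± 0.15 (detected on 6 arrays) and Kcnj16 by 0.05 ± 0.15.

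Of the 11 pore-forming genes of the Shaker, Shaw and Shal types 1 passed. Kcnc4, a Shaw-type channel with fast inactivation, had levels of 10.96 to 11.89 (median 11.46) in heterozygotes given cocaine, against 10.94, 10.88, 10.24, 10.31 and 10.73 in heterozygotes given saline. The range was 10.65 to 11.35 (median 11.08) in wild type given cocaine, against 10.39 to 10.93 (median 10.71) in wild type given saline. All 6 heterozygous and 5 of 6 wild-type cocaine arrays lay above the saline arrays of their genotype. Kcnc4 rose by 0.60 ± 0.12, or 1.51-fold (adjusted p = 0.00499), and its other probe by 0.89 ± 0.20 (adjusted p = 0.0127). Arrays 9, 16 and 19 were the highest of all 23 for this gene, and without them its difference was 0.43, which did not pass. With the excitatory and the striatal score it was 0.22 and 0.12, and passed with neither.

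The other 10 genes of this family lay between -0.28 (Kcna5) and 0.27 (Kcnc2). Kcnd2, the main A-type channel of spiny neurons, differed by -0.12 ± 0.06 and Kcnc1, the Shaw-type channel of fast-spiking cells, by -0.10 ± 0.06. The smallest adjusted p among the 10 was 0.0644 (Kcna5).

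Silent subunits conduct no current alone and join other potassium channel subunits, and 1 of 4 rose. The levels of Kcnf1 were 11.86 to 12.28 (median 12.18) in heterozygotes given cocaine, against 11.73, 11.62, 11.76, 11.70 and 11.78 in heterozygotes given saline. They were 11.66 to 12.12 (median 11.92) in wild type given cocaine, against 11.43 to 11.88 (median 11.61) in wild type given saline. All 6 heterozygous cocaine arrays lay above every heterozygous saline array, and 4 of 6 in wild type. The rise was 0.35 ± 0.07 (adjusted p = 0.00491), with 0.31 without arrays 9, 16 and 19 and 0.23 and 0.19 with the 2 scores, none of which passed. Kcnv1 differed by 0.19 ± 0.10 and Kcns2 by -0.26 ± 0.10, and neither passed. Kcns1 did not pass either, and since it was detected on 0 of 6 wild-type saline arrays no size is given.

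**Figure D2:**
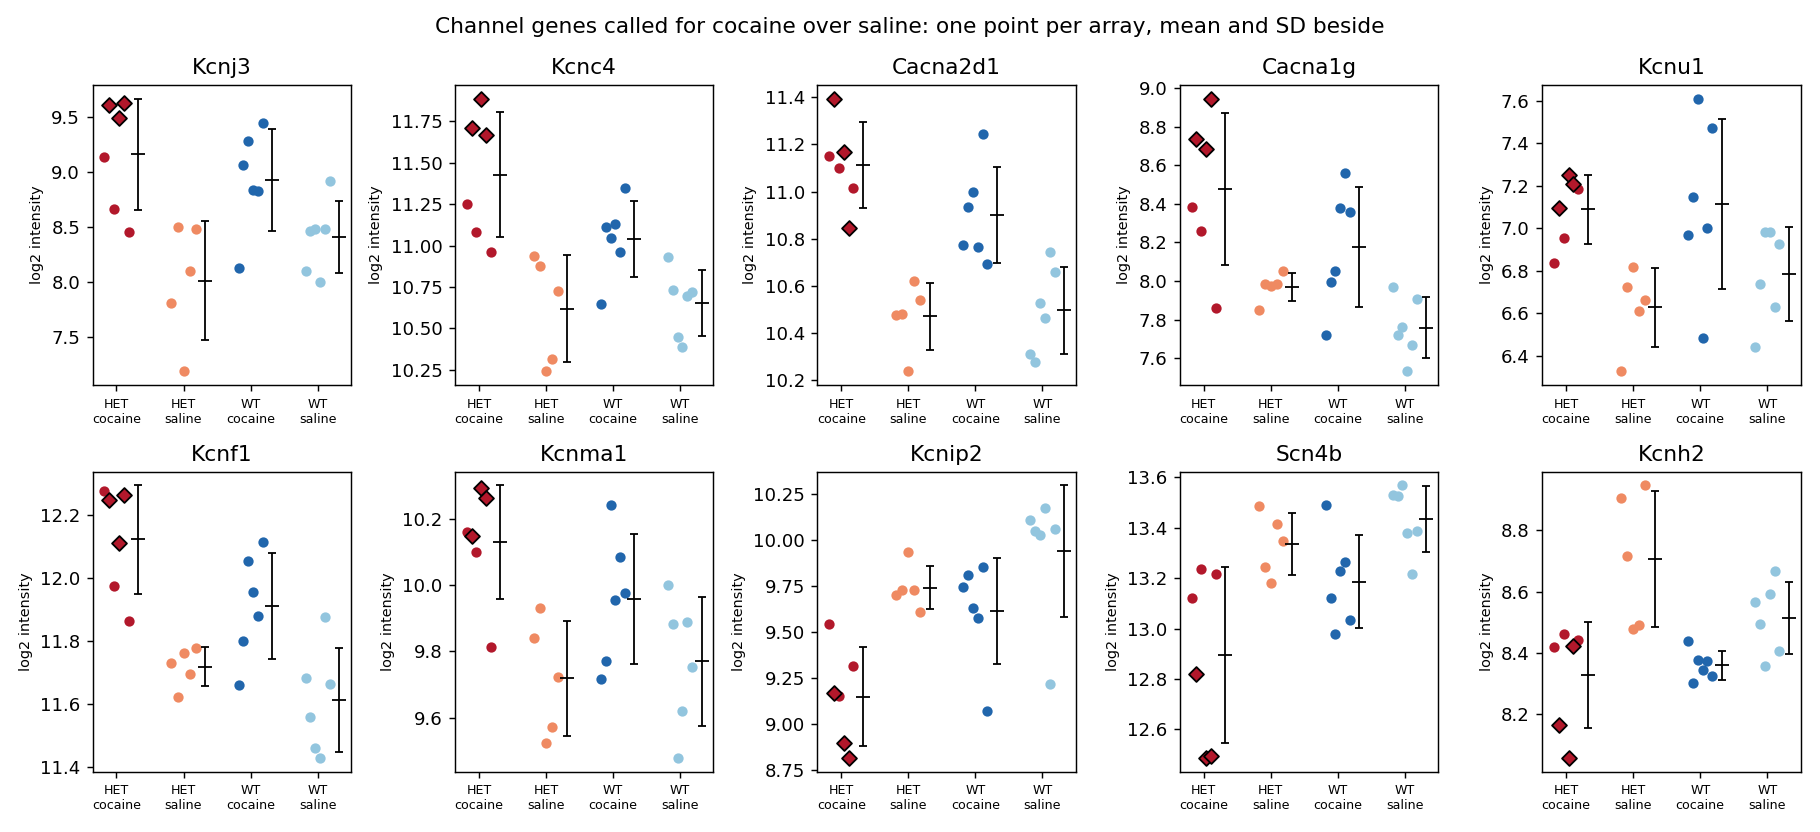
Log2 intensity of the 10 genes that differed between cocaine and saline arrays, 1 point per array, in the order heterozygous cocaine, heterozygous saline, wild-type cocaine and wild-type saline. Black bars are means with SD (n = 6, 5, 6 and 6), and diamonds mark arrays 9, 16 and 19, which are the 3 highest arrays for Kcnc4 and the 3 lowest for Scn4b.

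Among the pore-forming calcium channel genes Cacna1g, a low-voltage-activated T-type channel, rose and the other 3 detected did not pass. It ran over 7.86 to 8.94 (median 8.53) in heterozygotes given cocaine, against 7.85, 7.98, 7.98, 7.99 and 8.05 in heterozygotes given saline. The wild-type cocaine arrays ran over 7.72 to 8.56 (median 8.20), against 7.53 to 7.97 (median 7.74) for wild-type saline. Array 23 lay at 7.86 and was the only heterozygous cocaine array that did not lie above all heterozygous saline arrays. Its difference was 0.46 ± 0.11 (adjusted p = 0.0192), and 0.31 without arrays 9, 16 and 19. With the scores it was 0.19 (excitatory) and 0.12 (striatal), and it passed in none of these 3, nor with blocks of array numbers (0.44). Its other probe differed by 0.52 ± 0.17 (adjusted p = 0.0924).

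The second T-type gene, Cacna1h, differed by -0.20 ± 0.07 without passing, the L-type gene Cacna1d by -0.09 ± 0.10 (6 arrays) and the P/Q-type gene Cacna1a by -0.04 ± 0.13 (5 arrays). Cacna1c, the other L-type gene of neurons, and Cacna1e, the R-type gene, were detected on 0 arrays. The 3 beta subunit genes, which carry the pore to the membrane, lay between -0.10 (Cacnb2) and 0.02 (Cacnb1). Among the gamma subunit genes, most of which encode auxiliary proteins of AMPA receptors, Cacng7 differed by 0.36 ± 0.15 and Cacng4 by -0.38 ± 0.14. Neither passed (adjusted p = 0.214 and 0.145).

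Of the 6 genes grouped by symbol with the calcium- or sodium-activated potassium channels 2 rose, among them the pH-sensitive Kcnu1. Kcnma1 encodes the pore of the large-conductance BK channel. Its levels were 9.81 to 10.29 (median 10.15) in heterozygotes given cocaine, against 9.84, 9.93, 9.52, 9.57 and 9.72 in heterozygotes given saline, and 9.72 to 10.24 (median 9.97) in wild type given cocaine, against 9.48 to 10.002 (median 9.82) in wild type given saline. The wild-type groups overlapped in 4 of 6 cocaine arrays. Kcnma1 rose by 0.30 ± 0.08 (adjusted p = 0.034), and its other 2 probes differed by 0.27 ± 0.10 and 0.11 ± 0.24, which did not pass. Kcnma1 no longer passed in 10 of the 23 fits that each left out 1 array, nor without the filter on detection (adjusted p = 0.0611). Its difference was 0.25 without arrays 9, 16 and 19 and 0.12 and 0.11 with the excitatory and the striatal score, none of which passed.

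Kcnu1, known as a pH-sensitive channel of sperm, had 1 probe, detected on 22 arrays near the lower end of the scale. It ran over 6.83 to 7.25 (median 7.14) in heterozygotes given cocaine, against 6.33, 6.72, 6.82, 6.61 and 6.66 in heterozygotes given saline. In wild type it stood at 6.48 to 7.61 (median 7.07) after cocaine, against 6.44 to 6.98 (median 6.83) after saline. The 6 heterozygous cocaine arrays lay above all 5 saline arrays, and 4 of 6 did in wild type. The difference was 0.40 ± 0.11 (adjusted p = 0.0376), and it no longer passed in 11 of 23 fits without 1 array, nor without arrays 9, 16 and 19 (0.35), nor with the excitatory (0.38) or the striatal score (0.30), nor with blocks of array numbers (0.29), nor without the filter on detection (adjusted p = 0.0746).

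The other 4 genes of this family did not pass: Kcnn1, a small-conductance channel, at 0.32 ± 0.15, Kcnmb4, the neuronal beta subunit of BK channels, at 0.23 ± 0.11, Kcnn2 at 0.00 ± 0.11 and the sodium-activated Kcnt1 at -0.17 ± 0.11.

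The 3 genes that fell are an accessory subunit of A-type channels, a beta subunit of sodium channels and the pore of an ether-a-go-go-related channel. Their promoters hold 0 matches to the 4 motifs. The windows of Kcnip2 (chr19:45816014-45816313, minus strand, 67.0% G and C) and Scn4b (chr9:45138374-45138673, plus strand, 66.3%) are printed as those of the genes with the largest falls among the 3.
Kcnip2: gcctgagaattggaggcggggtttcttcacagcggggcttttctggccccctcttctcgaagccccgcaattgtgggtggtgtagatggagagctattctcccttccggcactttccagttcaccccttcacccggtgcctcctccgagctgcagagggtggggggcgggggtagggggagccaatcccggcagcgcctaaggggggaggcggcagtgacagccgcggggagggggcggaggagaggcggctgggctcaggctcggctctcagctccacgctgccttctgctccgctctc
Scn4b: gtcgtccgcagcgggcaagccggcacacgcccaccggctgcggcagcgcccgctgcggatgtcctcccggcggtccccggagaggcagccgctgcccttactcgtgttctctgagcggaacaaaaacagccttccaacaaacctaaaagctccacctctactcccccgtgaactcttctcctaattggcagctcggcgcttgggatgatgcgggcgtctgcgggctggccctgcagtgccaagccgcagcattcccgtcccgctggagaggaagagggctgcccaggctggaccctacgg

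Kcnip2 encodes a calcium-binding protein that brings A-type channels to the membrane. Its levels were 8.82 to 9.54 (median 9.16) in heterozygotes given cocaine, against 9.70, 9.73, 9.93, 9.73 and 9.61 in heterozygotes given saline. Wild type given cocaine stood at 9.07 to 9.86 (median 9.69), against 9.22 to 10.18 (median 10.05) for wild type given saline. All 6 heterozygous cocaine arrays lay below every heterozygous saline array, but in wild type only array 24 lay below every saline array. The difference was -0.46 ± 0.11, a fold of 0.728 (adjusted p = 0.0218). Its other 2 probes fell too, with differences of -0.70 ± 0.18 and -0.71 ± 0.15 (adjusted p = 0.0312 and 0.00851), so all 3 passed. Without arrays 9, 16 and 19 the difference of the first probe was -0.36, and with the scores -0.20 and -0.14, none of which passed.

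The other potassium channel accessory genes ran both ways, and none passed by its brightest probe. Kcnab3, a beta subunit of Shaker-type channels, differed by 0.54 ± 0.17 (adjusted p = 0.0682) and Kcnip4 by 0.27 ± 0.13, while Kcnip1 differed by -0.25 ± 0.09. Kcnab1, a beta subunit that gives Shaker-type channels fast inactivation, differed by -0.20 ± 0.08 on its brightest probe (adjusted p = 0.178). Its other 2 probes fell, with differences of -0.31 ± 0.08 and -0.40 ± 0.09 (adjusted p = 0.0387 and 0.0208). The third probe of the calcium channel gene Cacnb4 fell as well, with a difference of -0.29 ± 0.08 (adjusted p = 0.0347), while its other 2 differed by -0.07 and -0.08. Counted by any probe, 12 of the 70 passed, against 5.27% of all genes.

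Scn4b, a beta subunit rich in spiny neurons and linked to the resurgent sodium current, fell. Its levels were 12.49 to 13.24 (median 12.97) in heterozygotes given cocaine, against 13.49, 13.24, 13.18, 13.41 and 13.35 in heterozygotes given saline, and 12.98 to 13.49 (median 13.18) in wild type given cocaine, against 13.22 to 13.57 (median 13.46) in wild type given saline. Arrays 16 and 19 were the lowest of all at 12.49, array 9 followed at 12.82, and 7 of 12 cocaine arrays lay below all 11 saline arrays. The difference was -0.34 ± 0.09 (adjusted p = 0.0357), and that of its dimmer probe -0.41 ± 0.17, which did not pass. It was -0.20 without arrays 9, 16 and 19, -0.17 with the excitatory score and 0.023, of the opposite sign, with the striatal score. None of these passed, and it was also lost in 12 of the 23 fits without 1 array, with blocks of array numbers (-0.34) and without the filter on detection (adjusted p = 0.0683).

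The sodium channel pores did not pass. Scn1a, the main pore of fast-spiking interneurons, differed by 0.38 ± 0.11 (adjusted p = 0.06). The pores of projection neurons, Scn2a and Scn8a, differed by 0.05 ± 0.05 and 0.00 ± 0.12, and Scn3a by -0.11 ± 0.07. The beta subunits Scn2b and Scn3b differed by -0.05 ± 0.08 and -0.18 ± 0.10.

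Kcnh2, whose channel carries a slowly deactivating current that opposes repeated firing, was lower after cocaine. The heterozygous arrays read 8.06 to 8.46 (median 8.42) after cocaine, against 8.91, 8.72, 8.48, 8.49 and 8.95 after saline, and the wild-type arrays 8.30 to 8.44 (median 8.36) after cocaine, against 8.36 to 8.67 (median 8.53) after saline. All 6 heterozygous and 3 of 6 wild-type cocaine arrays lay below the saline arrays of their genotype. Its difference was -0.27 ± 0.07 (adjusted p = 0.0269). Its other probe, at -0.09 ± 0.11, did not pass, and the difference between the 2 probes was not tested. The difference was -0.21 without arrays 9, 16 and 19, -0.25 with the excitatory and -0.17 with the striatal score, and it passed in none of the 3.

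No gene passed in the remaining families. The other ether-a-go-go genes lay between -0.14 (Kcnh6) and 0.17 (Kcnh5), apart from Kcnh7, which is described below. The M-current genes Kcnq3 and Kcnq5 differed by 0.00 ± 0.13 (9 arrays) and -0.15 ± 0.10. The 5 two-pore genes, which carry leak current, ran between -0.17 (Kcnk2, a mechanically gated channel) and 0.22 (Kcnk3, 12 arrays).

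Within heterozygotes 6 of 70 channel genes passed, 5 higher and 1 lower, against 2.68% of all genes, with 1.95% higher and 0.73% lower. The 5 higher genes include Kcnh7, described below, which met the detection threshold only through its heterozygous cocaine arrays. Cacna2d1 rose by 0.64 ± 0.11 (adjusted p = 0.00468), Kcnc4 by 0.81 ± 0.17 (0.014), Kcnj3 by 1.15 ± 0.26 (0.0217) and Kcnf1 by 0.41 ± 0.10 (0.0324), and Kcnh2 fell, with a difference of -0.38 ± 0.10 (0.0399). An unadjusted p under 0.05 was reached by 26 of 70, against 16.5% of all genes. Among those that did not pass, Kcnab3 differed by 0.68 ± 0.24, Kcnip2 by -0.59 ± 0.16 (adjusted p = 0.0534), Cacng4 by -0.50 ± 0.21, Scn4b by -0.44 ± 0.13, Kcnj2 by -0.44 ± 0.24 and Cacna2d3 by -0.42 ± 0.15. Without arrays 9, 16 and 19 the count was 0 (1 gene in all), and Cacna2d1 then differed by 0.62, Kcnc4 by 0.48, Kcnj3 by 0.74, Kcnf1 by 0.32 and Kcnh2 by -0.27. With either marker score as a covariate it was also 0. The count fell to 1 (48 of all genes, against 272) with only the compared groups in the fit, where Cacna2d1 alone passed, to 2 with blocks of array numbers and to 3 without a filter. Counted by any probe, 7 of 70 passed in heterozygotes, against 3.24% of all genes.

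The remaining gene called in heterozygotes was Kcnh7, an ether-a-go-go-related channel of the brain. It was not above background on any of the 5 heterozygous saline arrays and was detected on 4 of 6 heterozygous cocaine arrays. The threshold of 5 arrays was met only through these 4, so its entry depended on the group where it is called higher. Without the filter on detection the call was lost. Its levels were 5.84 to 6.96 (median 6.37) in heterozygotes given cocaine, against 5.75, 5.66, 5.000, 4.90 and 5.64 in heterozygotes given saline, and every cocaine array lay above every saline array. Against a bound for the saline arrays Kcnh7 was 1.08-fold higher (mean 6.41 against 6.30, with a measured saline mean of 5.39). The cocaine mean takes arrays without detection at their own signal, so 1.08 is not a strict lower limit. The adjusted p of 0.0241, by limma, belongs to the measured difference and not to this fold. The bound is the mean, over the saline arrays, of the higher of the gene's own signal and the lowest signal of a detected probe. In wild type it was detected on 0 of 6 arrays after cocaine and 1 of 6 after saline, where no size is given.

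In wild type 0 of 70 channel genes passed, against 0.109% of all genes (11 genes), and 13 had an unadjusted p under 0.05, against 8.58%. The smallest p belonged to Cacna2d1 at 0.40 ± 0.11 (unadjusted p = 0.000967, adjusted 0.294), Kcnj12 at -0.49 ± 0.15 and Kcnf1 at 0.30 ± 0.09. The largest positive differences were those of Kcnj3 (0.52 ± 0.25), Kcnn1 (0.43 ± 0.20), Cacng7 (0.43 ± 0.21), Cacna1g (0.42 ± 0.15) and Scn1a (0.41 ± 0.16). On the negative side after Kcnj12 came Kcns2 (-0.38 ± 0.14), Kcna4 (-0.37 ± 0.17), Kcnip2 (-0.32 ± 0.15) and Kcnt1 (-0.31 ± 0.15). Each of the 10 genes called over both genotypes had the same sign in wild type as in heterozygotes. In all 10 the heterozygous difference was the larger in size, a contrast that the interaction tests. For Scn4b and Cacna1g this rested on arrays 9, 16 and 19. Heterozygous cocaine arrays 3, 11 and 23 read 13.12, 13.24 and 13.22 for Scn4b, against a heterozygous saline mean of 13.34. They read 8.38, 8.26 and 7.86 for Cacna1g, against 7.97. The wild-type means after cocaine and saline were 13.19 and 13.44 for Scn4b, and 8.18 and 7.76 for Cacna1g. The marker lists differed as well: the interaction was positive for 8 of 8 excitatory markers (median 0.47) and negative for 14 of 14 spiny neuron markers (median -0.28). Their part in the channel genes' values was not tested.

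The interaction, which tests whether the cocaine difference depends on genotype, called 0 of the 70 and 0 of all genes. At an unadjusted p under 0.05 it gave 1 of 70, against 4.81% of all genes. That gene was Kcnh7 (unadjusted p = 0.00257, adjusted 0.927), which was not above background on any array of 2 groups, so no size is given. Kcnh7 met the detection threshold only through its heterozygous cocaine arrays. The interaction, the heterozygous difference minus the wild-type one, was 0.62 ± 0.36 for Kcnj3 (95% interval -0.11 to 1.36), 0.42 ± 0.23 for Kcnc4 (-0.06 to 0.90) and 0.24 ± 0.15 for Cacna2d1 (-0.08 to 0.56). Others among the largest were Kcnj8 at 0.49 ± 0.31, Kcna3 at 0.42 ± 0.28, Cacng2 at -0.68 ± 0.38, Scn3b at -0.29 ± 0.20, Kcnj2 at -0.29 ± 0.33 and Kcnq3 at -0.28 ± 0.26. The 3 intervals hold 0 and also differences as large as the cocaine difference in wild type.

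**Figure D3:**
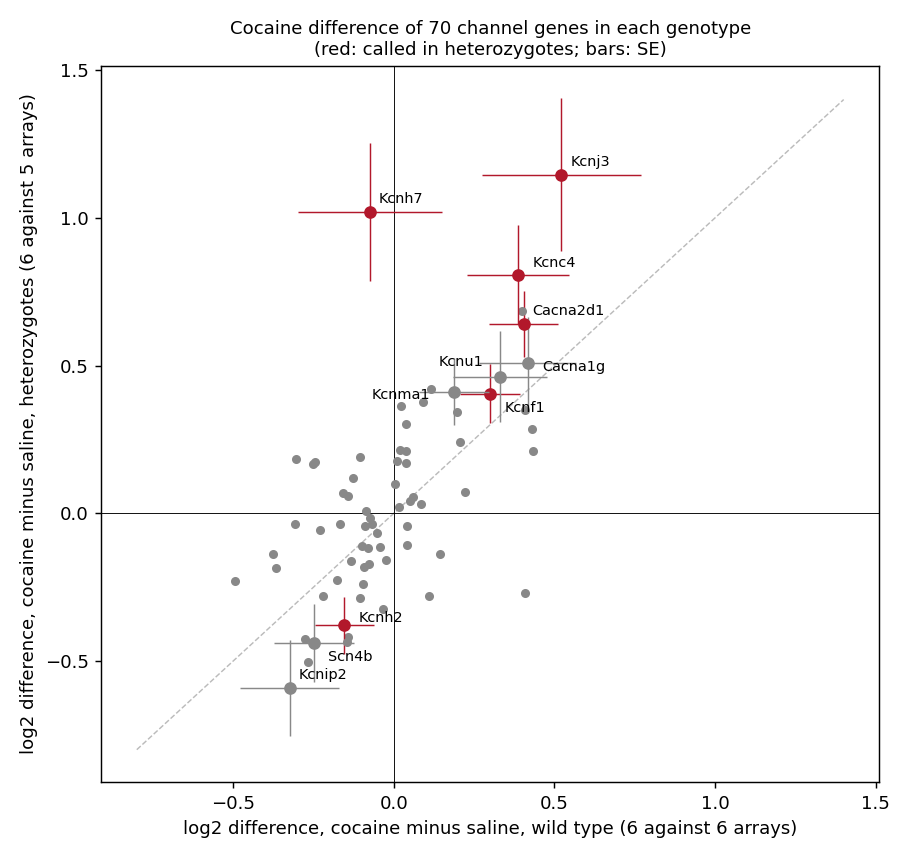
Log2 difference of the 70 genes, cocaine minus saline, in heterozygotes (vertical axis, 6 against 5 arrays) and in wild type (horizontal axis, 6 against 6 arrays), with SE bars on the named genes, which passed in heterozygotes or over both genotypes. The dashed line marks equal differences: Kcnj3, at 1.15 and 0.52, and Kcnc4, at 0.81 and 0.39, lie above it, and red points passed in heterozygotes. The point of Kcnh7 is a fitted value, since the gene was undetected throughout 2 groups.

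The genotype comparison asked whether the Foxp2 stop allele alters these transcripts. Heterozygotes differed from wild type in 0 of the 70 genes by limma when both injections were averaged, in 0 after saline and in 0 after cocaine, and 0% of all genes passed in each. At an unadjusted p under 0.05 the counts were 8, 2 and 10 of 70, against 4.73%, 3.71% and 6.65% of all genes. Averaged over injections, Kcnip2 had the smallest p, with levels of 9.15 ± 0.27 in heterozygotes and 9.62 ± 0.29 in wild type after cocaine, and 9.74 ± 0.12 in heterozygotes and 9.94 ± 0.36 in wild type after saline (SD). Its difference was -0.33 ± 0.11 (unadjusted p = 0.00669, adjusted 0.952), while its other 2 probes differed by -0.12 ± 0.18 and -0.17 ± 0.15. Kcna4, a Shaker-type A-type channel, followed at -0.30 ± 0.12 and Cacna1g at 0.26 ± 0.11. The other large averages were those of Kcnn1 (0.26 ± 0.15), Kcnj8 (0.18 ± 0.15), Kcnc4 (0.18 ± 0.12), Kcnf1 (0.16 ± 0.07), Kcnj2 (-0.31 ± 0.16), Kcnt1 (-0.24 ± 0.11) and Cacna2d3 (-0.23 ± 0.10).

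After saline the smallest p were those of Kcnt1 (-0.37 ± 0.15, unadjusted p = 0.0229), Kcna4 (-0.39 ± 0.18) and Kcnh2 (0.19 ± 0.10). Kcnj3 differed by -0.39 ± 0.26 and Kcna3 by -0.38 ± 0.20, Cacng2 by 0.40 ± 0.27, Kcnn1 by 0.37 ± 0.21 and Cacna1g by 0.21 ± 0.16. Kcnh7 and Kcns1 were each undetected throughout 1 of the 2 groups, so no size is given for them. In this comparison 51 of 70 genes were lower in heterozygotes, with a median of -0.06, against 4813 of 10138 genes and a median of 0.01. Excitatory markers were lower in 7 of 8 (median -0.20), spiny neuron markers in 11 of 14 (median -0.04) and septal markers in 0 of 3 (median 0.35), and their part in this shift was not tested. After cocaine Kcnip2 (-0.46 ± 0.15, unadjusted p = 0.00595) and Kcnc4 (0.39 ± 0.16) stood near Kcnh7, which was detected on 4 of 6 heterozygous and 0 of 6 wild-type arrays. Kcnh7 was 1.10-fold higher against a bound for the wild-type arrays, and its adjusted p of 0.654, by limma, belongs to the measured difference. The heterozygous mean takes arrays without detection at their own signal, so 1.10 is not a strict lower limit. Kcnh7 met the detection threshold only through the heterozygous cocaine arrays, so its small p here was drawn from the group that let it in. Further from 0 than most were Kcnj8 (0.42 ± 0.21), Cacna1g (0.30 ± 0.15), Kcnn2 (0.28 ± 0.15), Kcnj2 (-0.45 ± 0.22), Cacna2d3 (-0.30 ± 0.14), Scn4b (-0.29 ± 0.13) and Cacng7 (-0.28 ± 0.21). The genotype and cocaine comparisons share arrays, so their values stand side by side here and were not correlated.

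Within groups some channel genes followed the marker scores. A score is the mean log2 deviation of the list's detected genes on an array, and slopes were fitted over 23 arrays with the group as a term. With the excitatory score 4 of 70 genes passed, against 3.04% of all genes: Kcnj3 rose by 0.90 ± 0.14 log2 units per unit of score, Kcnmb4 by 0.58 ± 0.08 and Kcnc4 by 0.56 ± 0.10, and the slope of Kcnj12 was -0.47 ± 0.11. Over all genes 2.29% rose and 0.75% fell with this score. With the striatal score 8 passed, against 3.23% of all genes, of which 1.61% rose and 1.62% fell with it. Cacng4 (1.28 ± 0.33), Cacna2d3 (1.22 ± 0.15) and Scn4b (1.01 ± 0.16) rose with it, and Kcnj3 (-1.64 ± 0.40), Kcnab3 (-1.62 ± 0.36), Kcnc4 (-1.31 ± 0.20), Kcnmb4 (-1.03 ± 0.24) and Cacna1g (-0.94 ± 0.25) fell.

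These slopes rested partly on few arrays. Without arrays 9, 16 and 19 the slopes of Kcnj3 (0.90) and Kcnmb4 (0.55) on the excitatory score passed, and 0 of 70 did on the striatal score. Over all genes 61 then rose and 1 fell with the excitatory score, and 0 passed with the striatal score. In the saline arrays alone 0 of 70 passed for either score, against 0.178% of all genes for the excitatory and 0% for the striatal score, while the excitatory slopes there were 0.94 for Kcnj3, 0.60 for Kcnmb4, 0.47 for Kcnc4 and -0.57 for Kcnj12. In the cocaine arrays alone 5 of 70 passed with each score, where over all 10138 genes 141 rose and 89 fell with the excitatory score and 78 rose and 72 fell with the striatal score. Among the 10 genes called for cocaine, Cacna2d1 and Kcnh2 had excitatory slopes of 0.12 and -0.03 over all arrays. Their striatal slopes were -0.01 and 0.26. Kcnf1, Kcnip2, Kcnma1 and Kcnu1 had excitatory slopes of 0.19, -0.38, 0.27 and 0.03, and striatal slopes of -0.46, 0.88, -0.51 and -0.27. None of these slopes passed. Of the rest, Kcnj3 and Kcnc4 passed with both scores, and Scn4b and Cacna1g with the striatal score.

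**Figure D4:**
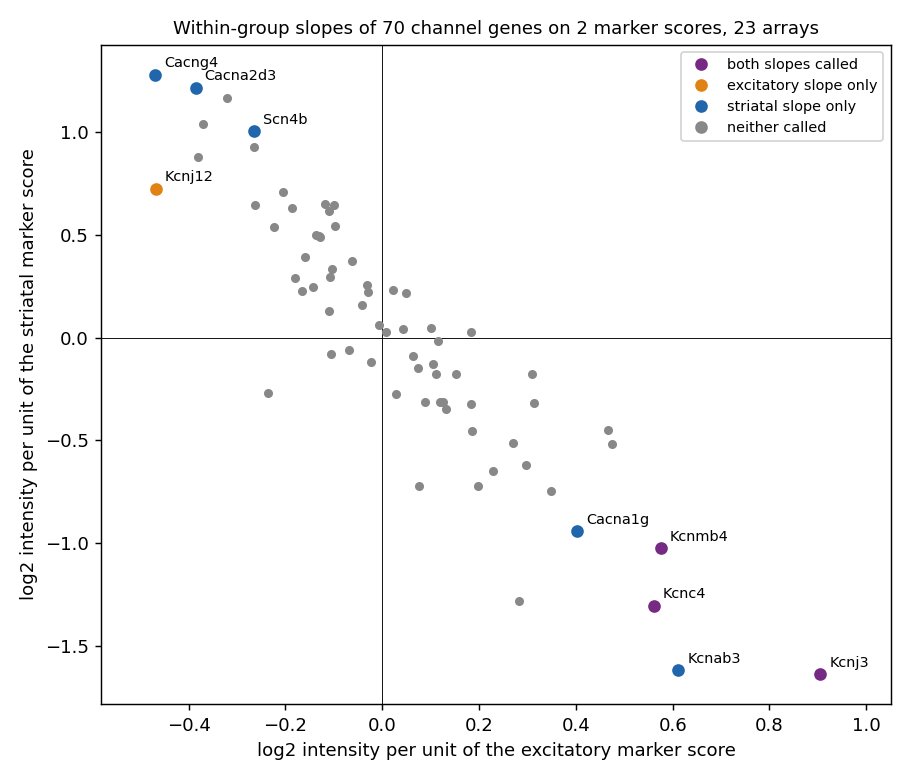
Slope of each of the 70 genes on the striatal marker score (vertical axis) and on the excitatory marker score (horizontal axis), in log2 intensity per unit of score, fitted over 23 arrays with group as a term. Kcnj3, Kcnc4 and Kcnmb4 (purple) passed with both scores, rising with the excitatory score and falling with the striatal score. The 2 scores share arrays and differ in direction between groups: they average 0.47 (excitatory) and -0.33 (striatal) in heterozygotes given cocaine, and -0.46 and 0.18 in heterozygotes given saline.

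Sex was compared only in the authors' processed values, which hold 61 of the 70 genes. Those values and the raw columns run in the same order of groups. Apart from a near-constant shift, their Kcnj4 levels match array by array. Females differed from males in 1 of 61, against 1.82% of all 9274 genes there, with 1.27% higher and 0.55% lower in females. By the shared order every male lies on an array up to number 12 and every female on an array from number 13. Sex and array order therefore cannot be told apart. Kcnj4, the strong inward rectifier subunit rich in the striatum, stood at 11.45 to 11.87 (median 11.66, n = 12) in females, against 11.73 to 12.02 (median 11.90, n = 11) in males. The ranges overlapped, and 8 of 12 females lay below every male. The difference, female minus male, was -0.21 ± 0.05 (adjusted p = 0.043), and its other probe differed by -0.27 ± 0.12 (adjusted p = 0.212). Group by group the means were 11.63 in females and 11.86 in males for heterozygotes given cocaine, 11.63 and 11.94 for heterozygotes given saline, 11.65 and 11.95 for wild type given cocaine, and 11.85 and 11.89 for wild type given saline. The call was lost in 16 of 23 fits without 1 animal. It was also lost with the replicate number as a block, where the difference was -0.46. Sex varies within a replicate number only for replicate 3, where the heterozygous saline animal alone is female. The blocked fit therefore cannot decide whether the call holds.

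Next by p came Kcnh6, an ether-a-go-go-related channel gene, at -0.43 ± 0.12 (adjusted p = 0.062), Scn1a at 0.28 ± 0.10 and Kcnk13, a two-pore channel gene known from microglia, at 0.29 ± 0.10. Kcnq1ot1, the transcript antisense to Kcnq1 that takes part in imprinting, differed by 0.60 ± 0.25, Kcna1 by 0.21 ± 0.11 and Scn2b by 0.18 ± 0.07. Lower in females without passing were Kcnj2 (-0.39 ± 0.16), Kcnh5 (-0.30 ± 0.14), Kcna4 (-0.29 ± 0.12) and Kcna2 (-0.24 ± 0.09).

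**Figure D5:**
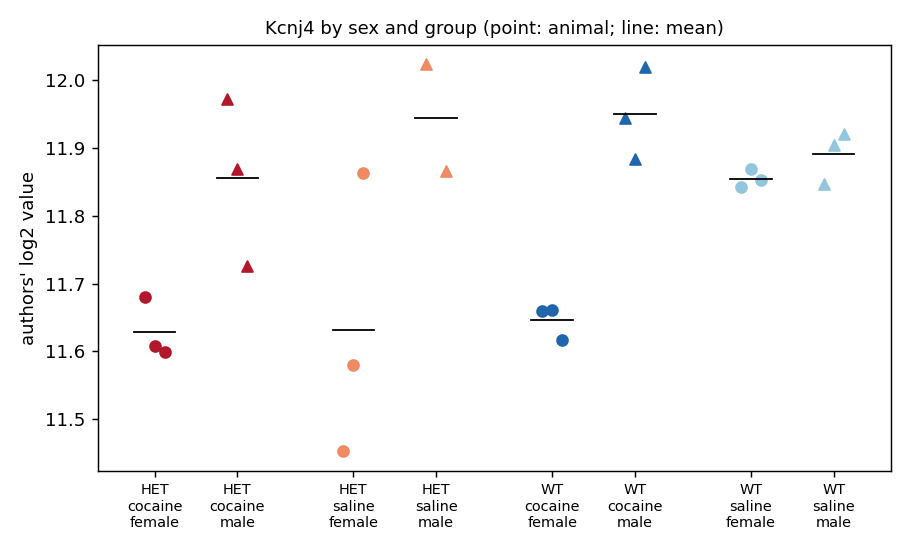
The authors' log2 value of Kcnj4 in each animal, by group, with females (circles) left of males (triangles) and lines at the means. Females average 11.63 to 11.65 in 3 groups and 11.85 in wild type given saline, against 11.86 to 11.95 in males.

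Genes that work with these channels were listed beside them. Of 32 partner genes 24 were detected, and between cocaine and saline arrays 3 rose and 1 fell (4 of 24, against 4.45% of all genes, with a median of 0.04). Cnih3, an auxiliary protein of AMPA receptors, rose by 0.83 ± 0.14 (adjusted p = 0.00237), Stac2, an adaptor of calcium channels, by 0.52 ± 0.12 (0.0196) and Fgf12, which binds sodium channels, by 0.25 ± 0.07 (0.037). Akap5, a scaffold that holds kinases at channels, fell, with a difference of -0.37 ± 0.10 (0.0376), and Cntnap2, which clusters Shaker-type channels along axons, differed by -0.30 ± 0.09 and did not pass (0.0508). Amigo1, a partner of delayed rectifiers, differed by 0.24 ± 0.07 (0.0576). Of the HCN channel genes 2 of 4 and of the voltage-gated chloride channel genes 4 of 7 were detected, and 0 of either list passed (medians 0.05 and 0.08).

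Fewer genes passed in the other cell type marker lists, some of which hold few detected genes. Over all genes 3.16% rose and 1.29% fell. Of striatal interneuron markers 2 of 8 rose, of choroid plexus and ependyma markers 1 of 2 fell, and of septal, astrocyte, oligodendrocyte, precursor, microglia, vascular, blood and general neuron markers 0 passed. All 8 activity-regulated genes (Fos, Fosb, Egr1, Egr2, Arc, Npas4, Junb and Dusp1) rose, with a median of 0.90.

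The threshold on detection leaves channel genes just on either side. Cacna1a, Kcnh7 and Kcns1 entered with 5 arrays, and Cacna1d and Kcnj8 with 6. Kcnj6 and Kcnj11 were left out with 4 arrays, Cacna1b and Kcnn3 with 3, and Kcne1, Kcne4 and Kcnk10 with 2. Of the 51 annotated genes left out 41 were detected on 0 arrays, among them Cacna1c, Cacna1e, Kcnh4 and Kcnd3. Detection here is that of the array's probes, and a gene below it may still be transcribed. Of the 70 described, 52 were detected on all 23 arrays.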

How the data were processed

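Per the file headers, the deposited raw table holds a non-normalized intensity of each probe on each of 23 arrays with a detection p-value beside it. Between 24.9% and 30.3% of each array's intensities are below 0, so the authors had subtracted a background before they deposited the table, with software not given in the sources used here. The other deposited table holds log2 values with 1 distribution shared by all arrays. Per the labels' protocols, mirVana and Illumina TotalPrep-96 kits served for extraction and labelling.

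For the work reported here the neqc function of limma 3.58.1 (R 4.3.3) corrected the background, using detection p-values in place of control probes, added 16 and normalized by quantiles, so a fold understates the change of dim genes. Detection below 0.01 was required on 5 or more arrays, which kept 18509 probes. Genes came from the platform's annotation (34885 of 45281 probes have 1 gene, 18 several, 10378 none), all 70 symbols matched the RefSeq table, and the brightest tested probe, by its mean, stands for its gene. A model of 4 groups was fitted over the 23 arrays and left 19 residual degrees of freedom, with two-sided moderated tests and Benjamini-Hochberg adjustment over all probes, and the threshold for a call was 0.05. The raw columns name genotype, injection and an array number (1 to 24, without 8) but no animal. Sex was tested, with group as a term, in the authors' values (9274 genes). Both sets of values run in the same order of groups. The p-values set a group difference against the spread between animals, 1 array each, pooled over the 4 groups. That spread was unequal for some genes: the SD of Scn4b was 0.35 in heterozygotes given cocaine and 0.12 to 0.18 in the other groups.

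The scripts were tested on simulated data. The channel genes and the 16 lists of other genes were chosen with earlier results of these data known. Named were genes called in any comparison, the 5 largest rises and falls and 3 smallest p in each, and members chosen for a striatal or cortical role. Alternatives were to skip the background correction, to add 50, to use the deposited log2 values (also with sex or the replicate number as a term), to drop the filter or require detection throughout, to weight arrays, to moderate with a trend and robustly, to fit the compared groups alone, to accept any probe, and to leave out each array. Added after seeing the data were fits without heterozygous cocaine arrays 9, 16 and 19, blocks of 6 array numbers, the 2 marker scores as covariates, and the slopes on these scores. Promoter windows are RefSeq's, and the files name no genome build for the probes.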

Additional observations from a re-analysis of the deposited data

Results flagged for a closer look

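The levels of the 11 channel genes called for cocaine in either fit were screened for single arrays that lie far from the rest of their group, in 44 groups of 5 or 6 arrays. A gap to the nearest array that is large against the group's whole range marked 2 arrays, where chance marks about 1 in 20 groups. Both were of Kcnip2, the accessory subunit of A-type channels. Wild-type cocaine array 24 read 9.07, below the next array of its group at 9.57, and wild-type saline array 17 read 9.22, below the next at 10.03. Apart from array 17, every wild-type cocaine array lay below every wild-type saline array in this gene. Without array 17 Kcnip2 differed by -0.53 between cocaine and saline, and without array 24 by -0.40, and it passed in both fits.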

How the results depend on the processing

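The counts of called channel genes for cocaine over saline averaged over genotypes lay between 7 and 15 under the other normalizations, filters, covariates and probe choices, against 10, and settings chosen after seeing the data gave 1 without arrays 9, 16 and 19, 6 with blocks of array numbers, 0 with the excitatory and 0 with the striatal score, with 49, 350, 14 and 12 of all genes, against 451. The settings differ in the channel genes tested and in the calls over all genes. Without a filter 7 of 121 channel genes passed, with 276 of all genes. With a trend and robust moderation 15 of 70 passed, with 616. With detection on all arrays 13 of 52 passed, with 507, and in the authors' values 11 of 61, with 440. The difference of Scn4b became 0.023 with the striatal score. Leaving out each array in turn gave 6 to 15. The count was 6 without array 9 and 6 without array 16, both with all 6 among the 10, and 15 without array 11. Over all genes 259 passed without array 9 and 270 without array 16. Of single genes, Kcnip2 was lost without array 14, Kcnh2 without arrays 1, 9, 16 or 22 (over all fits without 1 array -0.30 to -0.24), Kcnma1 without arrays 7, 9, 12, 14, 15, 16, 18, 19, 21 or 24 (0.27 to 0.33), Kcnu1 without arrays 1, 2, 5, 9, 10, 12, 16, 18, 19, 22 or 24 (0.35 to 0.46) and Scn4b without arrays 1, 2, 5, 7, 9, 10, 12, 16, 18, 19, 22 or 24 (-0.38 to -0.30). Cacna2d1, Kcnf1, Kcnc4, Kcnj3 and Cacna1g passed in all 23. With blocks of array numbers Cacna1g (0.44), Kcnj3 (0.70), Kcnu1 (0.29) and Scn4b (-0.34) did not pass.

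In heterozygotes the count of 6 became 3 without a filter, 1 with the compared groups alone, 0 without arrays 9, 16 and 19, 2 with blocks of array numbers, and 0 and 0 with the excitatory and the striatal score. Over all genes the same settings gave 134, 48, 1, 215, 0 and 1, against 272. Leaving out 1 array gave 2 to 10 (2 without array 9, 14, 16, 18 or 19, and 10 without array 23). Over all genes these fits called, in the same order, 91, 67, 97, 95, 121 and 394. Kcnf1 was lost without arrays 1, 3, 6, 9, 14, 16, 18 or 19, Kcnh2 without 1, 5, 6, 9, 16, 19 or 22, Kcnh7 and Kcnj3 without 9, 14, 16, 18 or 19, and Kcnc4 without 14 or 18. The counts for wild type, the 3 genotype comparisons and the interaction stayed at 0 under every setting run, with leave-one-out counts of 0 to 0.

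The replicate numbers of the labels were not shown to pair animals: same-numbered samples of different groups correlated with r of -0.26 to 0.42 (median 0.08, 13 of 33 pairs over 0.1), and 8 of 23 samples were closest to their own number. With the replicate block the cocaine count in the authors' values was 11, as without it, and the sex count fell to 0, against 1. In every group replicates 1 and 2 are male and replicates 4 to 6 female, and Kcnj4 with the block differed by -0.46. With the block sex varies only within replicate 3, where the heterozygous saline animal alone is female. That fit cannot decide whether the sex calls hold. Leaving out each animal gave sex counts of 0 to 2 (0 without any of 15 animals, 2 without wild-type saline replicate 2), with Kcnj4 between -0.23 and -0.20. Cacna1a, Kcnh7 and Kcns1 were each detected on 5 arrays, so signal over background limits their values. The causes of these shifts were not tested, apart from the fewer arrays or genes that some settings use.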

Other observations

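Several channel genes lie beside each other in the genome, and the cocaine differences of neighbours are given here side by side. In the RefSeq annotation 7 pairs of detected channel genes are adjacent protein-coding genes. Scn4b, which fell, differed by -0.34, and its neighbour Scn2b by -0.05. Cacng4 differed by -0.38 and Cacng5 by 0.06, Kcnj2 by -0.29 and Kcnj16 by 0.05. In the Shaker-type cluster on chromosome 6 Kcna5 differed by -0.28, Kcna1 by 0.15 and Kcna6 by 0.12. Kcna3 and Kcna2 differed by -0.04 and 0.09, and the sodium channel pores Scn3a and Scn2a by -0.11 and 0.05. Of these genes Scn4b alone passed the test, and the differences between neighbours were not tested.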
